A study of Mus musculus with 67 samples.

Results

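The Cyp2c genes described here are 10 members of the mouse cytochrome P450 2C family: Cyp2c29, Cyp2c37, Cyp2c38, Cyp2c39, Cyp2c40, Cyp2c50, Cyp2c54, Cyp2c55, Cyp2c69 and Cyp2c70. They were taken by symbol from a table of 45808 gene rows, and all 10 were among the 9955 genes that passed a filter on low values (at least 1 FPKM on average over the 67 libraries). FPKM scales a gene's fragments by transcript length and by library size, so levels can be compared between genes per length. Cyp2c39, Cyp2c40, Cyp2c55 and Cyp2c69 averaged under 1 FPKM in WT and passed through the genotypes in which they were higher, so that a difference for them is in part set by the filter. The study measured liver mRNA in C57BL/6 mice aged 24 weeks after 12 weeks on a high fat diet, which all groups shared, and asked how feeding time and clock genotype act on the liver transcriptome over the day. Food was given either ad libitum or in a restricted window (time-restricted feeding), with its hours not stated in the sources used here. Libraries came from WT mice and from mice labelled Bmal1-liverKO, Cry1Cry2 double KO and Rev-erbα/β-liverdoubleKO. Bmal1 (Arntl) drives the positive limb of the circadian clock, Cry1 and Cry2 are repressors of its negative limb, and Rev-erbα and Rev-erbβ (Nr1d1 and Nr1d2) are nuclear receptors that repress Bmal1.

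Ad libitum and restricted feeding had 12 and 11 libraries in WT, 6 and 6 in Bmal1-liverKO, 8 and 8 in Cry1Cry2 double KO, and 8 and 8 in Rev-erbα/β-liverdoubleKO. Zeitgeber time (ZT) counts the hours from lights on. WT and Bmal1-liverKO livers were taken every 4 h from ZT4 to ZT24, with up to 2 WT libraries a time and 1 Bmal1-liverKO library, and the livers of the other genotypes every 3 h from ZT3 to ZT24 with 1 library a time. The labels name the liver for the Bmal1 and Rev-erb knockouts but give no Cre driver, name no tissue for the Cry knockout, and do not say whether each library came from its own animal, so p-values below measure only the spread between these libraries. In whole liver, fewer cells of a type and less RNA per cell cannot be told apart.

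Cytochrome P450 2C enzymes are haem monooxygenases of the hepatocyte endoplasmic reticulum. They oxidise drugs, steroids and polyunsaturated fatty acids, with electrons delivered by P450 oxidoreductase (Por). In mouse liver several of them make epoxyeicosatrienoic acids from arachidonic acid, Cyp2c70 hydroxylates chenodeoxycholic acid to muricholic acids, and several genes of the family respond to the xenobiotic receptors CAR (Nr1i3) and PXR (Nr1i2), to the liver factor HNF4A and to the sex-dependent pattern of growth hormone; Cyp2c40 and Cyp2c69 are known as genes with higher expression in female than in male mice.

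All 10 genes lie in 1 cluster on chromosome 19 (GRCm38, GENCODE M21 annotation). From the proximal end these are Cyp2c55 (chr19:39007019-39042693, plus strand), Cyp2c29 (chr19:39269405-39330713, plus), Cyp2c38 (chr19:39389556-39463075, minus), Cyp2c39 (chr19:39510862-39568529, plus) and Cyp2c40 (chr19:39767071-39812814, minus). They are followed by Cyp2c69 (chr19:39842814-39886799, minus), Cyp2c37 (chr19:39992424-40012243, plus), Cyp2c54 (chr19:40037940-40073827, minus), Cyp2c50 (chr19:40089688-40113950, plus) and Cyp2c70 (chr19:40153353-40187333, minus). Their exons are poor in G and C, at 37.4% to 43% against a median of 49.4% over the 9581 tested genes with an annotated sequence.

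RefSeq promoter windows (build GRCm38.p6, 250 bases before to 50 bases after the gene start) were found for 9 of the 10 genes, in 10 entries because Cyp2c39 had 2, and none was matched for Cyp2c54. The windows of Cyp2c40, Cyp2c69, Cyp2c37 and Cyp2c50 are shown because these genes form the near-copies whose mRNAs moved together below, and that of Cyp2c55 because its level by genotype differed from those of the others. Each runs 5′ to 3′ on the gene's own strand and holds the 250 bases before the start: Cyp2c40 chr19:39812815-39813064 (minus), Cyp2c69 chr19:39886770-39887019 (minus), Cyp2c37 chr19:39992174-39992423 (plus), Cyp2c50 chr19:40089429-40089678 (plus) and Cyp2c55 chr19:39006769-39007018 (plus). Capitals mark CAAAGTC, the core of an HNF4-type element, on either strand.
Cyp2c40: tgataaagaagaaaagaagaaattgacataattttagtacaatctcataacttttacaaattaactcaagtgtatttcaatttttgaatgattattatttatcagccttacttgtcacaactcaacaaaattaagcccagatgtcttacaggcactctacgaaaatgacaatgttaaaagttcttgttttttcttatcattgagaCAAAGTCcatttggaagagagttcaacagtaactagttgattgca
Cyp2c69: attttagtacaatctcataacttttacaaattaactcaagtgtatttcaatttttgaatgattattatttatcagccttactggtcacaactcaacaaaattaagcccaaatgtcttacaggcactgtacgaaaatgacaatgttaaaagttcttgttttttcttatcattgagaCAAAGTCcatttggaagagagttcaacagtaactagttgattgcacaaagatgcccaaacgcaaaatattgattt
Cyp2c37: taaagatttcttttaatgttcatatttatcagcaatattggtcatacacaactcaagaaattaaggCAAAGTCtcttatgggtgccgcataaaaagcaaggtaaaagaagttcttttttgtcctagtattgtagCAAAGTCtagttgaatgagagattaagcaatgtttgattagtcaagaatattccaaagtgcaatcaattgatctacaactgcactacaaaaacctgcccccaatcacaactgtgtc
Cyp2c50: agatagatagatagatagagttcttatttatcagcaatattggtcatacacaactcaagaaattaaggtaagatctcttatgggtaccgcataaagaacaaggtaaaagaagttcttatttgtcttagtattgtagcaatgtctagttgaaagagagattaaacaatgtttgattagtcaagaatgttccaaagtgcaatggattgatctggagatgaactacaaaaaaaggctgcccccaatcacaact
Cyp2c55: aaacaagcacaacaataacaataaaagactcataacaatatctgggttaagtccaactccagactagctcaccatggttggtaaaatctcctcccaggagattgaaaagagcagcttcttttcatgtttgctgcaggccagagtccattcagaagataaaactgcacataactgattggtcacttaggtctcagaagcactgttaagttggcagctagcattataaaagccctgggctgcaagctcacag
The windows of Cyp2c40 and Cyp2c69 shared 217 of 220 aligned bases (98.6%), and those of Cyp2c37 and Cyp2c50 shared 215 of 245 (87.8%). The Cyp2c38 window and the nearer of the Cyp2c39 entries were alike at 89.6%. Against Cyp2c55 the other windows aligned at 58.3% to 64.5%.

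Motifs were counted on both strands of the full 300-base windows of 32851 promoters. The core CAAAGTC stood in 7 of the 10 entries, from 6 genes (Cyp2c29, Cyp2c37, Cyp2c39, Cyp2c40, Cyp2c69 and Cyp2c70), against 4.44% of all promoters. The core was chosen after the windows had been seen. Several windows are close copies of each other, so the entries are not independent. Not all lie at the gene starts given above: 1 Cyp2c39 entry (chr19:39347096-39347345) lies between Cyp2c29 and Cyp2c38. The Cyp2c29 window (chr19:39286835-39287084) lies inside the annotated gene. The longer CAAAGTCCA, which contains that core, stood in the windows of Cyp2c40, Cyp2c69 and Cyp2c70, against 0.47% of all promoters. The clock-related letters CACGTG (E-box, 7.15% of all promoters), TTATGTAA (D-box, 0.94%) and TAGGTCA (ROR element core, 2.61%) were in 0 of the 10 entries, which says only that these letters are not in these windows.

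The likeness extends to the transcripts. Of the 50-base words in Cyp2c40 transcripts, 60.3% also occurred in another Cyp2c gene (36.7% in Cyp2c69), and of those in Cyp2c69, 54.3% did (46.5% in Cyp2c40). The share was 30.1% for Cyp2c37 (21.1% in Cyp2c50), 25.7% for Cyp2c54, 18.3% for Cyp2c50, 11.4% for Cyp2c39 and at most 7.4% for Cyp2c38, Cyp2c29, Cyp2c55 and Cyp2c70. Reads from such stretches cannot be placed by sequence alone, so the split of signal between Cyp2c40 and Cyp2c69, and in part between Cyp2c37, Cyp2c50 and Cyp2c54, is uncertain.

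The libraries held an estimated 9.13 M to 35.9 M counted reads, from the step size of the lowest FPKM values. The dependence of a library's values on GC content differed between groups: the slope per 10 percentage points of GC was 0.028 to 0.507 in WT ad libitum, -1.049 to 0.141 in WT restricted and -0.202 to 0.196 in all mutant libraries. Because the Cyp2c genes are poor in GC, each difference is also given below after a correction for GC content and length. Both WT ZT16 libraries of replicate number 2 stood apart, with FPKM sums of 1096000 and 697900 against a median of 436000, and 7 libraries had pancreas markers summing to over 200 FPKM (range over all libraries 17.4 to 4305, with Clps listed at 0 in 55 of 67). Hepatocyte markers summed to 29280 to 86060 FPKM, and none was at 0 in any library. Xist was at most 0.0123 FPKM while the Y-linked Ddx3y was 8.34 to 42.7 FPKM in all 67 libraries. The targeted genes were not uniformly lower than in WT. Arntl was at 2 to 7.09 FPKM (median 3.18) in Bmal1-liverKO and 0.416 to 12.6 (median 7.29) in WT. In Cry1Cry2 double KO, Cry1 had a median of 10.2 FPKM against 10.6 in WT, and Cry2 2.73 against 3.23. In Rev-erbα/β-liverdoubleKO both targets were higher than in WT by median, Nr1d1 at 31.7 against 2.18 FPKM and Nr1d2 at 17.9 against 8.56, with overlapping ranges. Gene totals count exons outside a deleted part too, so these levels do not check the labels, and the genotypes below are the labelled ones.

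The 10 genes fell into an abundant and a scarce set. In the 23 WT libraries Cyp2c70 was the most abundant, with 122.5 to 2672 FPKM (median 481.9). The epoxygenases Cyp2c29 (85 to 322.9, median 184.5), Cyp2c50 (67.6 to 244.9, median 132.7), Cyp2c37 (66.1 to 181.6, median 107.9) and Cyp2c54 (30.5 to 155.2, median 87.3) came next, and each overlapped its neighbours in this order. Cyp2c38, a close relative of Cyp2c29, was at 0.577 to 35.8 FPKM (median 6.45).

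The other 4 were low in WT liver and their ranges overlapped. Cyp2c55, a fatty acid hydroxylase best known from the intestine, was at 0.242 to 1.31 FPKM (median 0.885). Cyp2c39, a retinoic acid hydroxylase, was at 0.0911 to 1.64 (median 0.721). Cyp2c40 was at 0 to 3.93 (median 0.498) and Cyp2c69 at 0.0389 to 1.37 (median 0.374). A median of 10.6 to 28.9 estimated reads per library lay behind each of these 4 genes over all libraries, against at least 254 for each of the other 6, so the low levels carry most of the counting error.

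Summed over the 10 genes, the median library held 826.8 FPKM in WT ad libitum and 1231 in WT restricted. The median sum was highest in Cry1Cry2 double KO, at 1907 ad libitum (1470 to 2407) and 1623 restricted (1285 to 2137). It was 1361 and 1400 in Bmal1-liverKO and 898.6 and 1057 in Rev-erbα/β-liverdoubleKO. The ranges overlapped, at 571.9 to 1742 and 815.9 to 3327 in WT ad libitum and restricted and 638.5 to 1780 and 961.3 to 2021 in Bmal1-liverKO, and the highest single sum was that of a WT restricted library. Cyp2c70 made up a median of 34.3% to 62.5% of the sum by group.

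**Figure D1:**
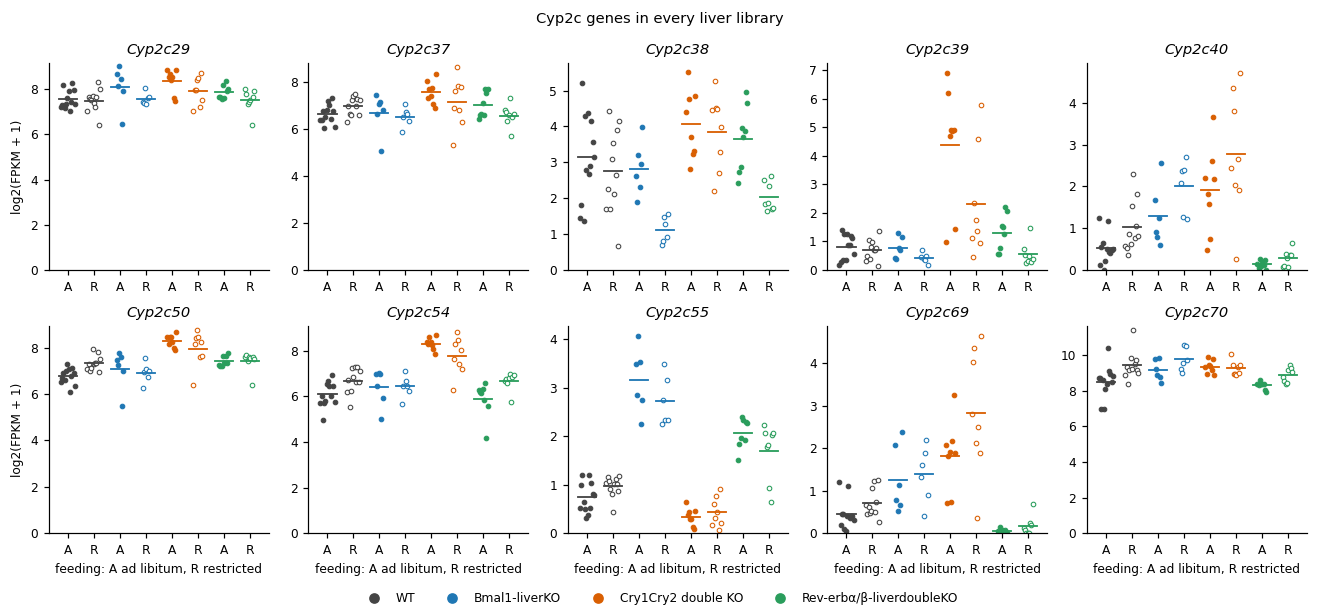
Levels of the 10 Cyp2c genes, as log2(FPKM + 1), in each library of the 8 groups of genotype and feeding; each point is 1 library and each line a group mean. By group mean, Cyp2c39, Cyp2c54 and Cyp2c69 sit highest in the 2 Cry1Cry2 double KO groups and Cyp2c55 in the 2 Bmal1-liverKO groups.

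Genotypes were compared with WT by limma on log2(FPKM + 1), averaged over both feedings, with the time of day as a daily sine and cosine, and p-values were adjusted over all 9955 genes (Benjamini-Hochberg). Differences and SEs below are on this scale, which understates the change of low genes. The comparison asks how the loss of each clock component acts on the liver transcriptome. The 3 comparisons share their WT libraries.

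In livers labelled Cry1Cry2 double KO, 8 of the 10 Cyp2c genes rose and Cyp2c55 fell. The background was high here: 65.4% of all genes tested passed, 3429 up and 3079 down. The median difference was 1.03 over the 10 genes and 0.02 over all genes. Of the 8 that rose, Cyp2c39, Cyp2c40 and Cyp2c69 averaged under 1 FPKM in WT and passed the filter through genotypes in which they were higher. The count and the median are therefore in part set by the filter.

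The greatest difference was that of Cyp2c39, the retinoic acid hydroxylase. It ranged from 0.368 to 119 FPKM (median 13.6) in the 16 Cry1Cry2 double KO libraries, and 11 of them lay above the highest WT value of 1.64. The difference was 2.57 ± 0.32 (SE, limma adjusted p = 4.65e-09). The libraries fell apart: 8 were over 20 FPKM and 8 were under 5, while the other 51 libraries of the study were at 0.0911 to 3.56. Under ad libitum feeding the values from ZT3 to ZT24 were 0.99, 118.5, 72.7, 24.8, 28.6, 28.2, 29.1 and 1.70 FPKM, low only at ZT3 and ZT24. Under restricted feeding they were 1.19, 0.368, 4.11, 2.33, 1.59, 23.2, 0.93 and 53.6 FPKM, high only at ZT18 and ZT24.

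The near-copies Cyp2c69 and Cyp2c40, which are female-biased genes, rose as well. Cyp2c69 was at 0.271 to 23.9 FPKM (median 3.27), above the highest WT value in 13 of 16 libraries (1.75 ± 0.19, adjusted p = 1.14e-10). Cyp2c40 was at 0.196 to 25.3 FPKM (median 3.56), above the highest WT value in 7 of 16 (1.57 ± 0.21, adjusted p = 1.93e-08).

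Of the abundant epoxygenases, Cyp2c54 and Cyp2c50 differed most. Cyp2c54 was at 75.7 to 458.4 FPKM (median 305.8), above the highest WT value in 14 of 16 libraries (1.66 ± 0.16, adjusted p = 3.52e-12). Cyp2c50 was at 83.2 to 430.8 FPKM (median 300.1), above it in 12 of 16 (1.06 ± 0.13, adjusted p = 5.13e-09). With 1 feeding alone the differences were 2.23 and 1.51 ad libitum and 1.09 and 0.61 restricted. Cyp2c29 at 129.2 to 461.7 FPKM (0.61 ± 0.16, adjusted p = 0.00101) and Cyp2c37 at 39.1 to 397 FPKM (0.54 ± 0.16, adjusted p = 0.0028) overlapped WT in more libraries. With the restricted libraries alone neither passed, at 0.41 (adjusted p = 0.114) and 0.16 (adjusted p = 0.542).

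Cyp2c38 was at 3.56 to 44.9 FPKM and above the highest WT value in 2 libraries (1.01 ± 0.31, adjusted p = 0.00393). Its call was lost with the ad libitum libraries alone (0.93, adjusted p = 0.0603) and without the libraries with pancreas markers (0.77, adjusted p = 0.0507). Cyp2c70, the muricholic acid enzyme, was at 461.1 to 1069 FPKM and did not pass (0.33 ± 0.17, adjusted p = 0.0863). Only the WT ZT16 libraries of replicate number 2, which stood apart, were above these values, at 1319 and 2672 FPKM. Without both of them Cyp2c70 passed (0.51, adjusted p = 0.000728). Cyp2c70 also passed after the GC and length correction (0.72, adjusted p = 3.64e-06) and ad libitum alone (0.85, adjusted p = 0.00263). It also passed without the ZT8 (adjusted p = 0.0485) or ZT16 library (adjusted p = 0.0119) of replicate 2 of WT ad libitum, or the ZT16 library of replicate 2 of WT restricted (adjusted p = 0.0186). With the restricted libraries alone Cyp2c70 did not pass and the sign was the opposite (-0.19, adjusted p = 0.501). Cyp2c55 was at 0.0524 to 0.882 FPKM, below the lowest WT value in 7 of 16 libraries (-0.46 ± 0.11, adjusted p = 0.000456), but not lower after the correction (-0.07, adjusted p = 0.604). The other 8 genes passed in the same direction with the correction. Adipocyte markers summed to 612.6 to 2569 FPKM (median 1980) in Cry1Cry2 double KO ad libitum and to 496.9 to 1844 (median 920) in WT ad libitum. Over all libraries the marker Car3 was at 89.4 to 2700 FPKM, and the others reached at most 45.4 (Cfd), 0.863 (Adipoq) and 0.388 (Plin1). The sum is thus mostly that of Car3, and its part in the result was not tested.

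Genes of the same pathways moved in both directions in Cry1Cry2 double KO. Por, the electron donor of these enzymes, rose by 1.54 ± 0.17, while Cyb5a fell by 0.45 ± 0.10; these were the only redox partners of 4 to pass. Of 13 xenobiotic receptors and liver-enriched factors, 8 rose, among them the heterodimer partner Rxra (0.97 ± 0.14) and Cebpa (0.84 ± 0.07), and 1 fell. Of 12 tested CAR and PXR targets outside the family, 4 rose and 2 fell, with Cyp3a11 higher by 2.54 ± 0.24 and Cyp2a5 at -2.67 ± 0.19. The PAR bZIP factors that bind D-boxes rose, Dbp by 2.65 ± 0.22, Tef by 1.16 ± 0.12 and Hlf by 0.93 ± 0.11, and their competitor Nfil3 fell (-0.62 ± 0.14).

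Sex-biased genes outside the family moved too. Of 15 listed female-biased liver genes, 7 passed the filter. Of these 6 rose and 0 fell, where 65.4% of all genes tested passed. The rises were led by Cyp2b9 (4.40 ± 0.52) and Cyp4a14 (3.16 ± 0.58), with a median of 1.24 over the 7 genes. Cyp2b13, which rose, averaged 0.621 FPKM in WT and 2.04 in Cry1Cry2 double KO, so its rise is in part set by the filter. Of 15 male-biased genes, 9 fell and 1 rose (Cyp4a12a, 1.43 ± 0.24), led by Moxd1 (-4.25 ± 0.41), Ugt2b38 (-3.40 ± 0.27) and Mup20 (-2.17 ± 0.27). Of 8 genes of growth hormone signalling and its repressors, 4 rose, among them Onecut1 (0.95 ± 0.26). Of the 3 other Cyp2c genes tested, Cyp2c67 rose (0.90 ± 0.13). Eicosanoid enzymes (4 up and 4 down of 12), bile acid genes (4 and 4 of 13) and periportal genes (4 and 4 of 11) were split, and pericentral genes, which mark the zone where many P450 enzymes are made, were 3 up and 7 down of 11. Among those 7, Glul changed sign with libraries scaled to the same sum (0.05), and Cyp2e1 changed sign with that scaling (0.01) and with the GC correction (0.12). The pericentral gene Axin2, which rose, averaged 0.876 FPKM in WT and 1.65 in Cry1Cry2 double KO, so its rise is in part set by the filter. With the GC correction Stat5a of the growth hormone list (0.31 to -0.14) and Baat of the bile acid list (-0.32 to 0.04) changed sign as well.

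In livers labelled Bmal1-liverKO, Cyp2c55 rose in every library, 3 of the other genes rose and 1 fell, where 27.4% of all genes tested passed (1956 up and 771 down). The median difference was 0.17 over the 10 genes and 0.07 over all genes. Cyp2c55, Cyp2c40 and Cyp2c69 averaged under 1 FPKM in WT, so their calls are in part set by the filter. Cyp2c55 was at 10.2, 6.18, 15.8, 10.6, 3.79 and 5.72 FPKM from ZT4 to ZT24 ad libitum and at 3.79, 5.75, 10.3, 4.04, 7.90 and 4.02 FPKM restricted. All 12 values lay above the highest WT value of 1.31. The difference was 2.09 ± 0.12 (limma adjusted p = 8.52e-19), 2.42 ad libitum and 1.77 restricted.

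Cyp2c40 was at 0.53 to 5.48 FPKM (median 1.82), above the highest WT value in 4 of 12 libraries (0.88 ± 0.23, limma adjusted p = 0.00272). Its near-copy Cyp2c69 was at 0.328 to 4.20 FPKM (median 1.35), above it in 6 of 12 (0.74 ± 0.21, adjusted p = 0.00548). Cyp2c40 missed the threshold with the ad libitum libraries alone (0.78, adjusted p = 0.0652) and Cyp2c69 with the restricted ones (0.68, adjusted p = 0.0602). Cyp2c70 was at 346.5 to 1505 FPKM. Only the WT restricted ZT16 library of replicate number 2, which stood apart, was above these values, at 2672 FPKM. The rise of Cyp2c70 was near the threshold (0.48 ± 0.19, adjusted p = 0.0471): it was lost when any of 25 of the 35 libraries was left out. Cyp2c38 was at 0.624 to 14.9 FPKM and fell (-0.98 ± 0.33, adjusted p = 0.0237). Its fall passed with the restricted libraries alone (-1.65, adjusted p = 0.00481) but not ad libitum (-0.32, adjusted p = 0.653), and was lost without the ad libitum ZT8 (adjusted p = 0.0568) or ZT16 library (adjusted p = 0.0539).

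The other 5 genes did not pass: Cyp2c29 (0.31 ± 0.17), Cyp2c37 (-0.21 ± 0.17), Cyp2c39 (-0.15 ± 0.35), Cyp2c50 (-0.05 ± 0.15) and Cyp2c54 (0.04 ± 0.17). Cyp2c29 passed without the ad libitum ZT20 library (0.45, limma adjusted p = 0.0496). Hepatocyte markers summed to 29280 to 44610 FPKM in the 12 Bmal1-liverKO libraries and 44630 to 70580 in the 23 WT libraries, without overlap; their part in these results was not tested.

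Among the related lists in Bmal1-liverKO, Por fell by 1.21 ± 0.19 and Cyb5a by 0.61 ± 0.11. Of the 13 receptors and factors, 1 rose and 3 fell, where 27.4% of all genes tested passed. The 3 that fell were Nr1i3 (CAR, -0.82 ± 0.16), Ppara (-0.51 ± 0.15) and Nr1i2 (PXR, -0.36 ± 0.09). Of the 12 CAR and PXR targets, 6 fell and 3 rose, with Cyp2a5 at -2.00 ± 0.21, Ugt1a1 at -1.47 ± 0.11 and the glutathione transferase Gstm3 higher by 2.39 ± 0.20. Of the Cyp2c relatives, Cyp2c68 (0.78 ± 0.16) and Cyp2c67 (0.67 ± 0.14) rose and Cyp2c44 fell (-0.56 ± 0.15).

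Of the sex-biased genes in Bmal1-liverKO, 5 of 15 male-biased genes rose and 1 fell, and 2 of 7 female-biased genes fell, Cyp17a1 by 2.16 ± 0.27 and Acot3 by 1.26 ± 0.35. Of 8 growth hormone genes 2 rose, Socs2 (0.68 ± 0.26) and Stat5b (0.38 ± 0.09). Eicosanoid enzymes were 2 up and 4 down of 12, bile acid genes 3 and 2 of 13, pericentral genes 3 and 3 of 11, and periportal genes 1 and 1 of 11. The pericentral Axin2 rose and averaged 0.876 FPKM in WT and 1.69 in Bmal1-liverKO, so its rise is in part set by the filter.

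In livers labelled Rev-erbα/β-liverdoubleKO, Cyp2c55 and Cyp2c50 rose and Cyp2c40, Cyp2c69 and Cyp2c70 fell. These 5 of 10 compare with 57.8% of all genes tested (2999 up and 2751 down), and the median difference was -0.06 over the 10 genes and 0.01 over all genes. Cyp2c55 was at 0.554 to 4.30 FPKM (median 2.98), above the highest WT value in 14 of 16 libraries (1.03 ± 0.11, limma adjusted p = 3.5e-10). This rise too is in part set by the filter, as Cyp2c55 averaged under 1 FPKM in WT. Cyp2c50 was at 81.4 to 217 FPKM, within the WT range (0.37 ± 0.13, adjusted p = 0.0175), with 0.65 ad libitum and 0.08 restricted (adjusted p = 0.74). Without the libraries with pancreas markers Cyp2c50 did not pass (0.29, adjusted p = 0.124), nor did Cyp2c40 (-0.41, adjusted p = 0.158), Cyp2c69 (-0.37, adjusted p = 0.152) and Cyp2c70 (-0.27, adjusted p = 0.14). Of the 5 calls in this genotype that of Cyp2c55 held there.

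Cyp2c40 was at 0 to 0.559 FPKM and Cyp2c69 at 0 to 0.612 FPKM, the lowest of the 4 genotypes by median for both (0.126 and 0.0426). Their falls, of -0.56 ± 0.21 (limma adjusted p = 0.0193) and -0.47 ± 0.19 (adjusted p = 0.0285), did not pass after the GC and length correction (-0.26 and -0.13, adjusted p = 0.268 and 0.566). Cyp2c70 was at 245.4 to 677.5 FPKM (-0.39 ± 0.17, adjusted p = 0.0474). This fall was lost with the correction (-0.08, adjusted p = 0.604) and when any of 24 of 39 libraries was left out. The other 5 genes did not pass: Cyp2c29 (0.15 ± 0.16), Cyp2c37 (-0.01 ± 0.16), Cyp2c38 (-0.12 ± 0.31), Cyp2c39 (0.17 ± 0.32) and Cyp2c54 (-0.11 ± 0.16).

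Of the related lists in Rev-erbα/β-liverdoubleKO, Por (0.40 ± 0.17) and Cyb5r3 (0.23 ± 0.10) rose and Cyb5a fell (-0.61 ± 0.10). Receptors and factors were 5 up and 2 down of 13, with Rxra at 0.67 ± 0.14 and Nr1i3 at -0.53 ± 0.15. CAR and PXR targets were 4 up and 4 down of 12, with Cyp2a5 at 2.24 ± 0.19, Gstm3 at 1.88 ± 0.18 and Cyp3a11 at -1.91 ± 0.24. All 4 of the PAR bZIP list rose, Dbp by 1.37 ± 0.22. Cyp2c44 (0.80 ± 0.14) and Cyp2c68 (0.46 ± 0.15) rose.

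Male-biased genes in Rev-erbα/β-liverdoubleKO were 1 up and 8 down of 15, with Cyp4a12a at -2.06 ± 0.24 and Serpina1e at -1.72 ± 0.35. Female-biased genes were 4 up and 1 down of 7, with Cyp17a1 at 2.80 ± 0.25, Cyp2a4 at 2.73 ± 0.26 and Acot3 at -0.96 ± 0.32. Cyp2a4 and Cyp2b13, which both rose, averaged 0.866 and 0.621 FPKM in WT and 47.3 and 1.92 in this genotype. Their rise is in part set by the filter. Growth hormone genes were 3 up of 8, eicosanoid enzymes 2 up and 3 down of 12, and bile acid genes 2 up and 5 down of 13, with Cyp7a1, which starts the conversion of cholesterol to bile acids, at -1.61 ± 0.27. Pericentral genes were 5 up and 1 down of 11 and periportal genes 7 up of 11, with Aldh1b1 at 1.11 ± 0.16. Among the pericentral rises, that of Axin2 (0.876 FPKM on average in WT and 1.7 in this genotype) is in part set by the filter. Within these counts Cyp27a1 changed sign with libraries scaled to the same sum (0.01) and Stat5a with the GC correction (-0.12).

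**Figure D2:**
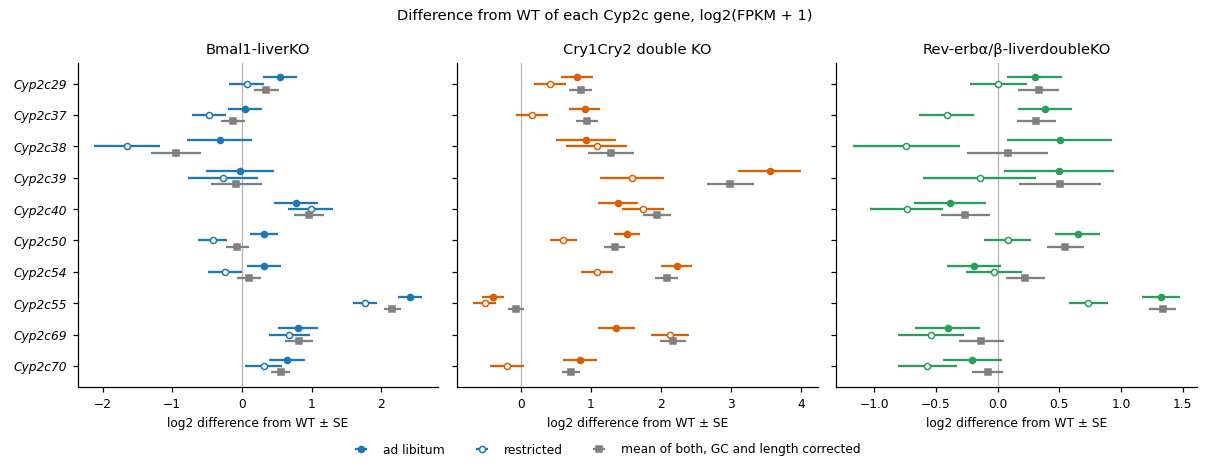
Difference of each Cyp2c gene from WT in the 3 knockout genotypes, on the log2(FPKM + 1) scale ± SE, by feeding and after the GC and length correction. In Cry1Cry2 double KO the differences of Cyp2c39 (3.55 ad libitum, 1.59 restricted) and Cyp2c54 (2.23 and 1.09) are shown by feeding, and Cyp2c55 stands above 0 in Bmal1-liverKO and Rev-erbα/β-liverdoubleKO.

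The feeding comparison, restricted minus ad libitum, asks what the timing of food changes within a genotype. In WT, Cyp2c70, Cyp2c54 and Cyp2c50 rose and none of the 10 fell, where 64.1% of all genes tested passed (2846 up and 3532 down). The median difference was 0.30 over the 10 genes and -0.03 over all genes. With the GC and length correction the split over all genes became 849 up and 2913 down, and the median of the 10 genes -0.19.

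Cyp2c70 in WT ad libitum was at 418.2 and 413.5 FPKM at ZT4, 122.7 and 389.1 at ZT8, 122.5 and 265.8 at ZT12, 327.1 and 1319 at ZT16, 549.3 and 481.9 at ZT20, and 352.1 and 441.7 at ZT24. Under restricted feeding it was at 469.5 and 641.4 FPKM at ZT4, 333.8 and 577.8 at ZT8, 918.1 at ZT12, 581.2 and 2672 at ZT16, 705.9 and 823.6 at ZT20, and 563.5 and 501.9 at ZT24. The groups overlapped, but the restricted mean was higher at 6 of 6 times. The difference was 0.94 ± 0.22 (limma adjusted p = 0.000241) and 0.48 after the correction (adjusted p = 0.0144).

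Cyp2c54 was at 30.5 to 123 FPKM (median 63.7) ad libitum and 45.1 to 155.2 (median 103.1) restricted in WT, and Cyp2c50 at a median of 112.8 and 156.4. Each was higher at 6 of 6 times, by 0.61 ± 0.20 (limma adjusted p = 0.00842) and 0.56 ± 0.17 (adjusted p = 0.00383). Neither difference passed after the GC and length correction (0.14, adjusted p = 0.638, and -0.20, adjusted p = 0.443, with the sign reversed for Cyp2c50). Cyp2c29 (-0.69, adjusted p = 0.00838) and Cyp2c38 (-1.03, adjusted p = 0.0483) fell only with the correction, against -0.06 and -0.37 without it; with a replicate block added to the correction Cyp2c29 passed (adjusted p = 0.0096) and Cyp2c38 did not (-0.98, adjusted p = 0.0517). The GC slopes of the WT libraries, given above, move with the feeding.

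In Bmal1-liverKO none of the 10 passed, where 0.0402% of all genes tested passed (2 up and 2 down), with 3 of the 10 at an unadjusted p under 0.05 by limma. The widest difference was that of Cyp2c38. It was at 5.15, 2.69, 8.15, 3.95, 6.80 and 14.9 FPKM from ZT4 to ZT24 ad libitum and at 0.624, 0.768, 1.79, 1.46, 0.891 and 1.93 FPKM restricted. The groups did not overlap and the restricted value was lower at every time, but the difference of -1.70 ± 0.54 did not pass (adjusted p = 0.272). It passed with each time as a category (adjusted p = 0.0107) and with libraries weighted by their quality (adjusted p = 0.0123).

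In Rev-erbα/β-liverdoubleKO the same gene, Cyp2c38, was the only one of the 10 to pass, where 3.34% of all genes tested passed (109 up and 223 down). It was at 4.33, 5.70, 6.29, 14.5, 12.1, 13.7, 30.2 and 24.1 FPKM from ZT3 to ZT24 ad libitum and at 4.73, 2.56, 2.14, 2.65, 4.11, 5.19, 2.27 and 2.28 FPKM restricted. It was lower under restricted feeding at each time but ZT3. The fall was -1.61 ± 0.47 (limma adjusted p = 0.0404), and was lost in 12 of the 16 fits that left out 1 library (adjusted p up to 0.104), the exceptions being those at ZT3 and ZT18. Cyp2c54 was higher under restricted feeding at 7 of 8 times without passing (0.77 ± 0.24, adjusted p = 0.0654). It passed without the ad libitum ZT3 (adjusted p = 0.0447) or ZT18 library (0.0113) or the restricted ZT18 library (0.0278). Cyp2c70, which rose in WT, was also higher here at 7 of 8 times without passing (0.57 ± 0.26, limma adjusted p = 0.237). It passed with libraries weighted by their quality (0.00134), with the compared groups alone (0.000223) and with times as categories (0.0377). In Bmal1-liverKO Cyp2c70 was higher by 0.61 ± 0.30 (adjusted p = 0.486) and passed with such weights (0.00852). In Cry1Cry2 double KO its difference was -0.10 ± 0.26.

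Beside these values in Rev-erbα/β-liverdoubleKO, 4 of 7 female-biased genes outside the family fell, Cyp2a4 by 5.25 ± 0.39, Cyp2b9 by 3.74 ± 0.79, Cyp2b13 by 1.62 ± 0.40 and Abcd2 by 1.09 ± 0.31, and 5 of 15 male-biased genes rose, with Moxd1 at 2.28 ± 0.63. Cyp2a4 and Cyp2b13 averaged 94.1 and 3.75 FPKM ad libitum and 0.528 and 0.0926 restricted in this genotype, so their fall is in part set by the filter. Nr1i3 (CAR) fell by 0.87 ± 0.22 and Gstm3 by 1.33 ± 0.28. In WT, where 64.1% of all genes tested passed, 7 of the 15 male-biased genes rose under restricted feeding and 0 fell, with Moxd1 at 2.30 ± 0.53. Of the 7 female-biased genes 0 passed in WT by limma, and 0 had an unadjusted p under 0.05.

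In Cry1Cry2 double KO none of the 10 passed, where 0.0201% of all genes tested passed (0 up and 2 down), with 4 of the 10 at an unadjusted p under 0.05 by limma. Cyp2c39 was lower under restricted feeding (-2.07 ± 0.49, adjusted p = 0.137), with the values given above. Without the ad libitum ZT3 library the adjusted p was 0.0223, and without the restricted ZT24 library 0.00422. Cyp2c69 was at 0.648 FPKM or more ad libitum with a median of 2.72, against 0.271 to 23.9 with a median of 5.30 restricted (1.02 ± 0.29, adjusted p = 0.31).

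The feeding effect itself differed between the 4 genotypes for Cyp2c50 (limma adjusted p = 0.0185), Cyp2c54 (adjusted p = 0.00392) and Cyp2c55 (adjusted p = 0.0355), where 47.1% of all genes tested passed. Cyp2c54 was higher under restricted feeding by 0.61 in WT and 0.77 in Rev-erbα/β-liverdoubleKO, near equal in Bmal1-liverKO (0.04) and lower in Cry1Cry2 double KO (-0.54 ± 0.24). Without the WT restricted ZT12 library the adjusted p of Cyp2c50 was 0.05, and that of Cyp2c55 missed the threshold when any of 15 of 67 libraries was left out (up to 0.0666). With the GC and length correction Cyp2c54 (adjusted p = 0.0409) and Cyp2c69 (adjusted p = 0.0409) passed and Cyp2c50 (adjusted p = 0.921) and Cyp2c55 (adjusted p = 0.0648) did not.

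**Figure D3:**
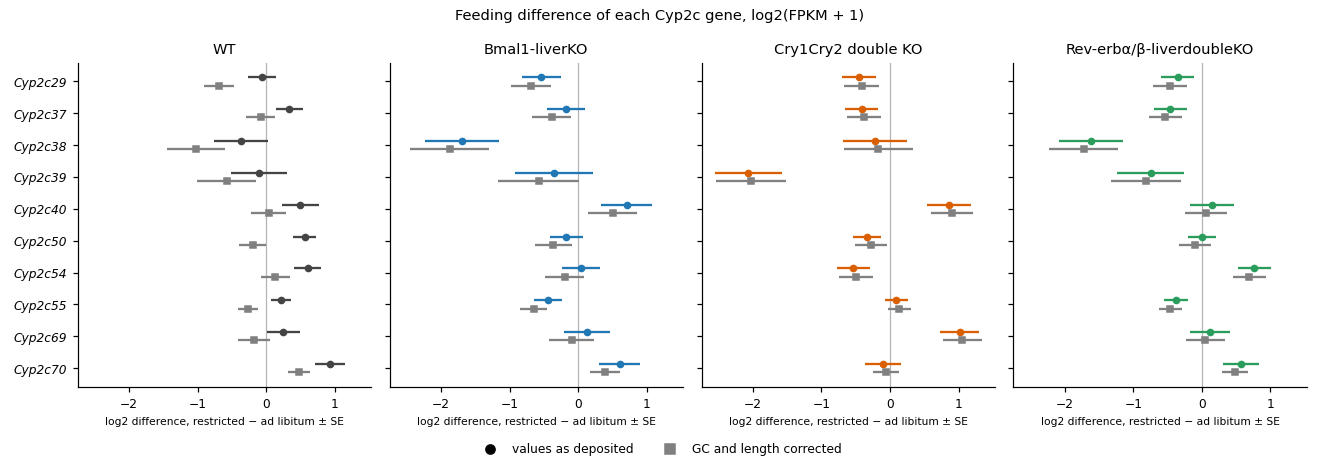
Restricted minus ad libitum difference of each Cyp2c gene by genotype, on the log2(FPKM + 1) scale ± SE, from the deposited values and after the GC and length correction. In WT the correction lowers the values, for example from 0.56 to -0.20 for Cyp2c50, and in the mutants Cyp2c38 is lower at -1.70 in Bmal1-liverKO and -1.61 in Rev-erbα/β-liverdoubleKO.

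Daily rhythm was tested as a 24-h sine and cosine within each group, in the same limma fit. In WT ad libitum Cyp2c70 was the only one of the 10 to pass, where 29.7% of all genes tested passed. Its amplitude was 0.72 on the log2 scale with a peak at ZT20.7 (adjusted p = 0.0292). Without the ZT8 library of replicate 1 the adjusted p was 0.15, without the ZT12 library of replicate 1 it was 0.0681, and with the GC and length correction 0.0577. In WT restricted 20% of all genes and none of the 10 passed. By limma 1 of the 10, Cyp2c70, was at an unadjusted p under 0.05 there (amplitude 0.65, peak ZT16.1, adjusted p = 0.0687). It passed there without the ZT4 library of replicate 2 (0.0374) or the ZT16 library of replicate 1 (0.0107).

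In Cry1Cry2 double KO under restricted feeding 4 of the 10 passed, where 7.26% of all genes tested passed, in 2 opposite phases. Cyp2c37 was at 39.1, 118.6, 194.6, 397, 230.7, 111.5, 223.5 and 77.5 FPKM from ZT3 to ZT24 (amplitude 1.10, peak ZT13.7, limma adjusted p = 0.0082). Cyp2c54 was at 75.7, 197.3, 316.4, 458.4, 355.3, 171.9, 262.3 and 147.6 FPKM (amplitude 0.90, peak ZT13.3, adjusted p = 0.0392). Both were highest at ZT12 and lowest at ZT3.

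The near-copies ran the other way. Cyp2c69 was at 5.94, 15.4, 19.6, 3.34, 0.271, 4.66, 2.67 and 23.9 FPKM from ZT3 to ZT24 (amplitude 1.40, peak ZT4.2, limma adjusted p = 0.00442). Cyp2c40 was at 4.42, 19.3, 12.9, 3.09, 0.196, 5.28, 2.77 and 25.3 FPKM (amplitude 1.35, peak ZT3.8, adjusted p = 0.0153). Both were highest at ZT24 and lowest at ZT15. None of the 4 passed with the spread estimated in this group alone (adjusted p from 0.189 to 0.297). Leaving out a single library changed the calls: without ZT15, Cyp2c40 (adjusted p = 0.251), Cyp2c54 (0.0851) and Cyp2c69 (0.109) did not pass, without ZT3, Cyp2c37 (0.165) and Cyp2c54 (0.346) did not, and without ZT12, Cyp2c37 (0.0902) and Cyp2c54 (0.194) did not. Cyp2c40 also failed without ZT6 (0.0523), and Cyp2c54 without ZT9 (0.0659) or ZT24 (0.0566). Cyp2c50 (0.70, peak ZT13.1, limma adjusted p = 0.0598) passed without ZT6 (0.0353), ZT18 (0.0382) or ZT21 (0.0208), and Cyp2c39 passed without ZT21 (0.0218).

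In the other 5 groups none of the 10 passed, and few genes did: 0.0301% of all genes in Bmal1-liverKO ad libitum, 0.492% in Bmal1-liverKO restricted, 0.0402% in Cry1Cry2 double KO ad libitum, 0.0301% in Rev-erbα/β-liverdoubleKO ad libitum and 4% in Rev-erbα/β-liverdoubleKO restricted. In this order 4, 1, 2, 0 and 1 of the 10 were at an unadjusted p under 0.05 by limma. The 4 in Bmal1-liverKO ad libitum, Cyp2c29, Cyp2c50, Cyp2c54 and Cyp2c55, had fitted peaks between ZT9.2 and ZT10.9 and were all highest at ZT12 and lowest at ZT20. Their low point is thus a single shared library, which for Cyp2c50 stood far from the others (43.9 FPKM against 124 for the next). In Rev-erbα/β-liverdoubleKO restricted the gene was Cyp2c55 (0.64, peak ZT3.9, adjusted p = 0.0538), which passed without ZT12 (0.0346) or ZT21 (0.036).

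**Figure D4:**
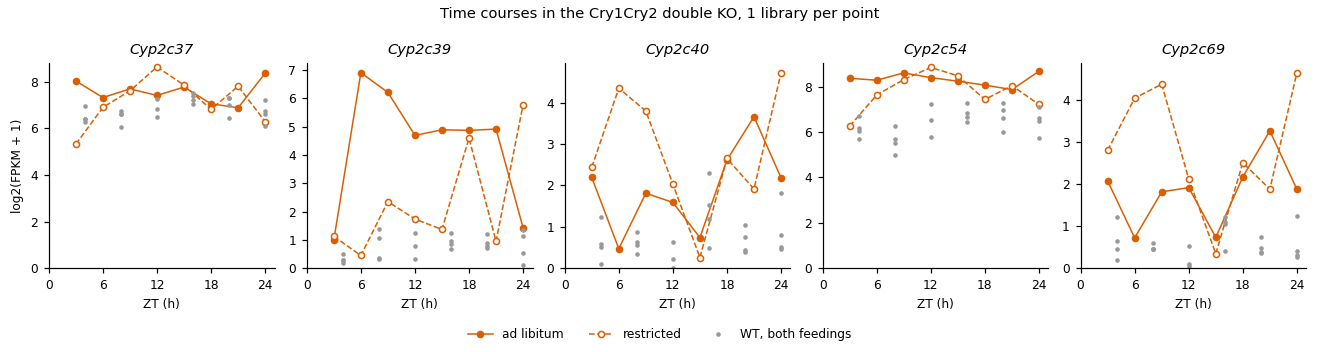
Time courses of Cyp2c37, Cyp2c39, Cyp2c40, Cyp2c54 and Cyp2c69 as log2(FPKM + 1) against ZT in Cry1Cry2 double KO, by feeding, with 1 library a time and WT libraries as grey points. Under restricted feeding Cyp2c37 and Cyp2c54 are highest at ZT12, when Cyp2c40 and Cyp2c69 are falling to their lowest value at ZT15.

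The 10 genes did not vary as 1 block across the 67 libraries. Correlations here are of log2(FPKM + 1), describe these libraries, and are shared with depth, GC dependence and group. Cyp2c40 and Cyp2c69 had r = 0.966, and 0.95 for the deviations from the fitted group and time values; these are the genes that share most sequence. Cyp2c50 had r = 0.817 with Cyp2c54 and 0.807 with Cyp2c37, and Cyp2c29 had 0.744 with Cyp2c37. Cyp2c70 was apart from Cyp2c37 (0.062), Cyp2c50 (0.054) and Cyp2c29 (-0.07), but had r = 0.4 with Cyp2c54. The most negative pair was Cyp2c39 with Cyp2c55 (-0.418).

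Cyp2c38 and Cyp2c39, whose promoters are near-copies, had r = 0.837 over the 51 libraries outside Cry1Cry2 double KO and 0.063 over the 16 Cry1Cry2 double KO libraries.

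**Figure D5:**
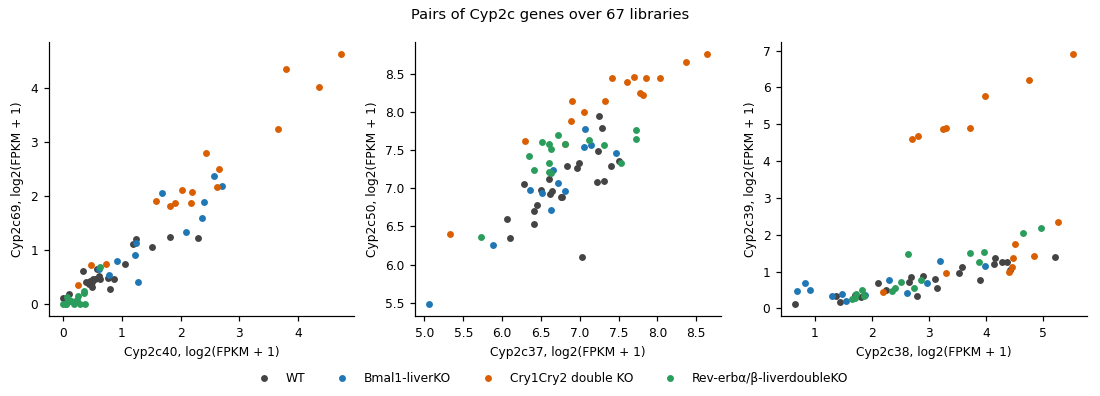
Levels, as log2(FPKM + 1), of Cyp2c40 against Cyp2c69, Cyp2c37 against Cyp2c50 and Cyp2c38 against Cyp2c39, with each point 1 of the 67 libraries. The first pair lies close to a line (r = 0.966), and in the last the Cry1Cry2 double KO libraries leave the relation of the other 51.

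Of the genes outside the family with a mean of at least 5 FPKM, those most like the mean standardised level of the 10 over 67 libraries were Cpox, a haem synthesis enzyme (r = 0.751), Slc17a8 (0.73), Pcp4l1 (0.706), Gatm, the first enzyme of creatine synthesis (0.7), and Slc17a1 (0.698). For deviations from the fitted values they were Pon1 (0.775), Pipox (0.696), Ces1c (0.694), Cyp2e1 (0.688) and Cyp3a25 (0.686). Taken gene by gene, a choice made after the values were seen, Cyp2c55 was most like the glutathione transferases Gstm2 (0.914), Gstm3 (0.867) and Gstm6 (0.864), Cyp2c38 most like Cyp2b9 (0.821), and Cyp2c70 most like Serp1 (0.818), a protein of the endoplasmic reticulum.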

How the data were processed

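Liver mRNA was sequenced from stranded mRNA libraries (TruSeq), per the labels' protocols. The authors deposited 1 table of FPKM values per gene and library. The submitters' processing notes name STAR, featureCounts, DESeq2 and GRCm38, with no versions or roles, and the strand setting of the counting is not given in the sources used here. All 67 columns matched a library by title and 0 were left unmapped.

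Values were transformed to log2(FPKM + 1), where 1 is the pseudocount. Genes whose mean over all libraries reached 1 FPKM were kept (9955), and 4 rows with a repeated symbol were left out. A single model over all 8 groups, with a sine and a cosine of 24 h in each group, was fitted with limma 3.58.1 in R 4.3.3. P-values were adjusted over all genes by Benjamini-Hochberg at 0.05. The GC and length correction removed a smooth curve (spline with 5 degrees of freedom) of each library's deviations against exon GC content and length, for the 96.2% of tested genes with an annotation. Read depth was estimated from the steps of low FPKM values, since 82.1% to 88.3% of low values per library came out within 0.1 of a whole read. It is an estimate, and it covers counting error only. The fit was tested on simulated data.

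The 10 genes and all lists were chosen with earlier results of these data known. All 10 were named whatever their values, with up to 3 passing genes of greatest difference from each list (or others with the reason), the 5 most correlated genes, and the genes most like single members, which were added after the values were seen. Alternatives were another pseudocount, no filter, other scalings, the GC correction, library weights, the compared groups alone, 1 feeding alone, times as categories, a replicate block and leaving out each library. Leaving out libraries with pancreas markers or the WT ZT16 libraries of replicate number 2 was chosen after seeing the data. Sequences came from RefSeq tables and were compared with Biopython 1.88. A passing gene of 1 list is not reported here. No library was dropped or imputed in the fits as reported.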

Additional observations from a re-analysis of the deposited data

Results flagged for a closer look

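In 60 groups of 6 or 8 libraries of 1 gene, 8 held a library far from the others by Dixon's criterion, which chance alone meets in about 1 in 20 groups; libraries are shared between genes. The restricted ZT18 library of Rev-erbα/β-liverdoubleKO was such for 4 genes: Cyp2c29 was at 84.9 FPKM, Cyp2c50 at 81.4 FPKM and Cyp2c54 at 53.1 FPKM, each the lowest of its group, and Cyp2c39 was at 1.79 FPKM, the highest of its group. In the ad libitum ZT20 library of Bmal1-liverKO, Cyp2c37 was at 32.3 FPKM and Cyp2c50 at 43.9 FPKM, with the next lowest at 99.6 and 124 FPKM. Cyp2c54 was at 16.9 FPKM in the ad libitum ZT21 library of Rev-erbα/β-liverdoubleKO, against 46.3 FPKM for the next. Cyp2c69 was at 0.612 FPKM in the restricted ZT24 library of the same genotype, against 0.184 FPKM for the next.

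The feeding difference varied between genotypes for 3 of the 10 genes by limma, where 47.1% of all genes tested passed. The adjusted p was 0.0185 for Cyp2c50, 0.00392 for Cyp2c54 and 0.0355 for Cyp2c55. With the GC and length correction Cyp2c54 (0.0409) and Cyp2c69 (0.0409) passed, and Cyp2c50 (0.921) and Cyp2c55 (0.0648) did not.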

How the results depend on the processing

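Counts are of the 10 Cyp2c genes passing limma's threshold. Without the filter the count fell from 1 to 0 for feeding in Rev-erbα/β-liverdoubleKO, from 5 to 3 for that genotype and from 1 to 0 for rhythm in WT ad libitum. With median-of-ratios scaling it was 5 for the difference of feeding between genotypes (3 as reported) and 1 for rhythm in WT restricted (0). Libraries scaled to the same sum, which moved the median of all genes by up to 0.20, gave 6 for that difference, 3 for the Rev-erbα/β-liverdoubleKO genotype and 1 for rhythm in WT restricted and in Rev-erbα/β-liverdoubleKO restricted. The GC and length correction gave 2 for the Rev-erbα/β-liverdoubleKO genotype, 0 for rhythm in WT ad libitum and 1 in Rev-erbα/β-liverdoubleKO restricted. Library weights gave 2, 3 and 4 for feeding in Bmal1-liverKO, Cry1Cry2 double KO and Rev-erbα/β-liverdoubleKO (0, 0 and 1), 7 for its difference between genotypes, and for rhythm 1 in Bmal1-liverKO restricted, 4 in Cry1Cry2 double KO ad libitum and 1 in either feeding of Rev-erbα/β-liverdoubleKO. Only the compared groups in the fit gave 5 for feeding in WT (3), 3 in Rev-erbα/β-liverdoubleKO, 3 for the Bmal1-liverKO genotype (5), and for rhythm 0 in WT ad libitum, 0 in Cry1Cry2 double KO restricted (4) and 1 in Rev-erbα/β-liverdoubleKO restricted. The ad libitum libraries alone gave 2 for the Bmal1-liverKO and Rev-erbα/β-liverdoubleKO genotypes, the restricted ones 3. Times as categories gave 5 for feeding in WT, 1 in Bmal1-liverKO and 2 in Rev-erbα/β-liverdoubleKO. Without the libraries with pancreas markers the difference of feeding was 5 and the Rev-erbα/β-liverdoubleKO genotype 1, and without the WT ZT16 libraries of replicate number 2 the latter was 2. The cause was not tested for any of these. Of 4550 values of the 10 Cyp2c genes over all settings, 4239 kept their direction and their side of the threshold, 72 that had not passed changed sign, 93 passed newly, 144 no longer passed and 2 that had passed changed sign. The latter were both Cyp2c50 for feeding in WT, at -0.20 with the GC correction and -0.18 with it and a replicate block.

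Leaving out each library gave 3 to 3 for feeding in WT, 0 to 0 in Bmal1-liverKO, 0 to 1 in Cry1Cry2 double KO and 0 to 2 in Rev-erbα/β-liverdoubleKO, 2 to 5 for its difference between genotypes, 3 to 5, 9 to 10 and 4 to 5 for the Bmal1-liverKO, Cry1Cry2 double KO and Rev-erbα/β-liverdoubleKO genotypes. For rhythm it gave 0 to 2 in WT ad libitum, 0 to 1 in WT restricted, 1 to 6 in Cry1Cry2 double KO restricted, 0 to 1 in Rev-erbα/β-liverdoubleKO restricted and 0 in the other groups. Where it emptied a time, the curve of the remaining times carried the fit.

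WT libraries of the 2 feedings share replicate numbers. Their deviations correlated over genes by more than 0.1 at 4 of 5 times (0.398, 0.626, 0.609 and 0.544, but -0.287 at ZT24). The labels do not say what the numbers stand for, so they were not taken as pairs. The fit as reported therefore leaves any effect shared by a number in the spread. A replicate block gave 3 genes for feeding in WT, the same number as without it. With the GC correction it gave 2 (Cyp2c29 and Cyp2c70), and Cyp2c38 was lost. Depth limits Cyp2c39, Cyp2c40, Cyp2c55 and Cyp2c69 most, with a median of 10.6 to 28.9 estimated reads a library.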
